A study of Mus musculus with 2 samples.

Results

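The 8 genes followed here mark naive and central memory T cells in lymphoid organs, and their RNA was measured across the immune cells of the small intestine lamina propria. They are Tcf7, Lef1, Ccr7, Klf2, S1pr1, Satb1, Igfbp4 and Dapl1. They were chosen by symbol, and all 8 were found among the 32285 genes of both count matrices. The cells came from 2 droplet libraries (10x Genomics, 3′ gene expression), 1 pool of 3 mice for each genotype. Control mice were Aster-A F/F, in which both Aster-A alleles are floxed, and the compared mice were CD4-Cre; Aster-A F/F, which carry the same floxed alleles with a Cre transgene. They are called F/F and CD4-Cre here. Aster-A, encoded by Gramd1a, is a cholesterol transfer protein. All mice were female littermates of 10 to 12 weeks, fasted for 16 h and given olive oil by gavage for 2 h, and the cells sorted were live, CD45+ and negative for EPCAM, Ter119 and CD31. CD4-Cre is known to act in thymocytes that give rise to both CD4 and CD8 T cells, so both lineages can carry the deletion.

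Naive T cells circulate between blood and lymphoid organs. They are drawn into lymph nodes through the chemokine receptor CCR7, and leave along a gradient of sphingosine 1-phosphate through S1PR1. KLF2 is a transcription factor that drives the S1pr1 gene, while TCF-1 (Tcf7) and LEF-1 (Lef1) are related DNA-binding factors that maintain the naive and memory states, and SATB1 organises chromatin in thymocytes and T cells. Igfbp4, an insulin-like growth factor binding protein, and Dapl1 are used as transcript markers of naive T cells. T cells resident in the gut wall are known to lose much of this programme.

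The F/F files held 222838658 UMIs (unique molecules) and the CD4-Cre files 200580083. Barcodes of 1000 UMIs and 500 genes or more, with mitochondrial UMIs no higher than 10%, numbered 12594 and 12526 and were kept as cells, with medians of 15319.5 and 14031 UMIs. Plasma cell clusters took 73.2% of the F/F cells and 63.0% of the CD4-Cre cells. Cell classes were rebuilt from clusters and are named "-like" or by their leading genes, and 47 barcodes were kept in both libraries. Ptprc, which encodes CD45, had a UMI in 64.4% and 70.3% of cells, and Epcam, a marker the sort removed, in 53.5% and 48.9%. Levels are given in CPM, UMIs of a gene per 1000000 UMIs of its class, and Gramd1a in CD4 T-like cells was at 79.1 and 63.3 CPM. A 3′ tag can lie outside the deleted part of the gene, so this checks nothing about the deletion. Each genotype was 1 pool, so no test was possible, and every interval given is a 95% interval for counting error only, exact Poisson for CPM and exact Clopper-Pearson for shares.

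Promoter sequences are shown for Lef1 and Satb1, the pair of regulators among the 8 genes whose levels ran most alike over the named classes. Each is the 250 bases before a transcription start in the RefSeq table of GRCm38.p6, 5′ to 3′ on the gene's strand. Capitals mark the core bound by KLF factors, CACCC, or its reverse complement GGGTG. Lef1 is shown at chr3:131110047-131110296, plus strand, and Satb1 at chr17:51833291-51833540, minus strand.
Lef1: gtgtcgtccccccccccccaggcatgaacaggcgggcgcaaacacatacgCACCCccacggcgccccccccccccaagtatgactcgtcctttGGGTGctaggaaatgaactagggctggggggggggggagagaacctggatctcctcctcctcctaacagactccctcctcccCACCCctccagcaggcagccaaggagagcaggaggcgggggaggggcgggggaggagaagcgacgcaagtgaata
Satb1: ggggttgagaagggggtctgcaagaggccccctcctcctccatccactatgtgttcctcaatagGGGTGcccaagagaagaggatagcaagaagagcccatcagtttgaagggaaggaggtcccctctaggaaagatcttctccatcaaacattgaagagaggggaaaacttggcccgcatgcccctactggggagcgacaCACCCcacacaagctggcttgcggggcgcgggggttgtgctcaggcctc
The Lef1 window held 3 KLF cores and the Satb1 window 2, and 52.0% of the 32851 windows of this length held at least 1. The core bound by TCF and LEF factors, CTTTGA or TCAAAG, was in neither window and in 13.8% of all windows. It was found in 1 of the 4 listed Lef1 windows, with 2 matches, in none of the 5 of Satb1 and in neither of the 2 of Tcf7. The single Klf2 window held 1 KLF core. Ccr7 and S1pr1 had no entry. No matches overlapped in the printed windows, both strands were searched, and a match describes the letters and no binding.

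The lamina propria T cells carried UMIs of Tcf7, Lef1 and Satb1, at levels that differed widely between classes, but few of the receptor genes Ccr7 and S1pr1. Of the 1855 T cells in F/F (median 3822 UMIs) and 3024 in CD4-Cre (median 3559.5), over every T class and T-led cluster, a Ccr7 UMI was found in 5 and 6 cells. S1pr1 had a UMI in 19 (1.02%) and 50 (1.65%) cells, Igfbp4 in 1 and 2, and Dapl1 in 1 in each. No T cell of either library had a UMI of both Ccr7 and S1pr1. A count of 0 allows up to 3 such cells, a share of 0.162% in F/F and 0.0992% in CD4-Cre, which limits cells with these UMIs and not cells expressing the genes. Ccr7 together with Tcf7 or Lef1 was found in 3 T cells of F/F and 4 of CD4-Cre. In the plasma clusters, which are several times deeper at a median of 17625 and 17438.5 UMIs, the S1pr1 share was 0.965% and 0.735%. The S1pr1 level was 3.52 and 8.40 CPM in CD4 T-like cells and 0.565 and 0.424 CPM in plasma clusters. It was 0.341 and 0.796 CPM in barcodes of 150 to 350 UMIs, which hold mostly free RNA. In barcodes of 10 to 100 UMIs, also taken as free RNA, it was 1.47 and 1.35 CPM, from 2 UMIs in each library. In CD4 and CD8 T-like cells alone, of 463 and 886 cells, Ccr7 was found in 4 and 2 and S1pr1 in 9 and 20.

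Tcf7 (chromosome 11, 52252371 to 52283014 on GRCm38 in GENCODE M21, minus strand) was highest in a cluster led by Klra7 and other receptor genes of NK cells, at 175 CPM (148 to 206) in F/F and 213 CPM (190 to 239) in CD4-Cre. That cluster had no class name and was counted with the T cells, with a Cd3e UMI in 77.6% and 75.9% of its cells, Trac in 55.2% and 54.8% and the NK marker Ncr1 in 14.8% and 17.8%. CD8 T-like cells followed with 176 CPM (144 to 214) and 151 CPM (132 to 172). The intervals of these top classes overlapped in F/F but not in CD4-Cre. CD4 T-like cells had 116 CPM (97.1 to 138) and 141 CPM (124 to 160). Gamma-delta T-like cells (125 and 105 CPM), ILC3-like cells (114 and 110 CPM) and NK and ILC1-like cells (112 and 102 CPM) came next, and their values overlapped those of CD4 T-like cells or of their neighbour in the order. Group 3 innate lymphoid cells (ILC3) have no antigen receptor, so Tcf7 at this level was not limited to T cells. Innate-like T cells, with the factor gene Zbtb16 among their markers, had only 33.1 and 45.6 CPM, and ILC2-like cells 12.5 and 47.8 CPM. The T cluster led by Foxp3, the regulatory T cell factor, and Tnfrsf4 had 3.79 and 9.63 CPM. Beside this, Tcf7 was at 5.04 and 7.09 CPM in barcodes of 150 to 350 UMIs. In barcodes of 10 to 100 UMIs it was at 30.2 and 26.9 CPM, near the F/F level of innate-like T cells. These barcodes were richer in the T cell gene Cd3e, at 236 and 265 CPM against 26.7 and 38.1 CPM in those of 150 to 350 UMIs. The plasma cell gene Jchain was at 20370 and 22152 CPM in them but at 3795 and 3805 CPM in innate-like T cells. The part of free RNA in the Tcf7 level of innate-like T cells was not tested. A Tcf7 UMI was found in 28.9% and 32.1% of CD4 T-like cells and in 48.5% and 40.2% of CD8 T-like cells. After each cell was thinned to 1500 UMIs, with 11 and 12 shallower CD4 T-like cells left out and none of the CD8 T-like cells, these shares were 15.7% and 17.8%, and 18.7% and 21.3%. The plasma clusters, which should lack Tcf7, had 1.76% and 2.42% before thinning and 0.164% and 0.395% after. No Tcf7 UMI was found in the 30 and 36 B-like cells. Of 12 F/F migratory dendritic-like cells 4 had a Tcf7 UMI, and 2 of these 4 also had a T cell receptor UMI, beside 3 of all 12. In CD4-Cre 1 of 38 had Tcf7, without a receptor UMI, beside 8 of all 38 with one.

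**Figure D1:**
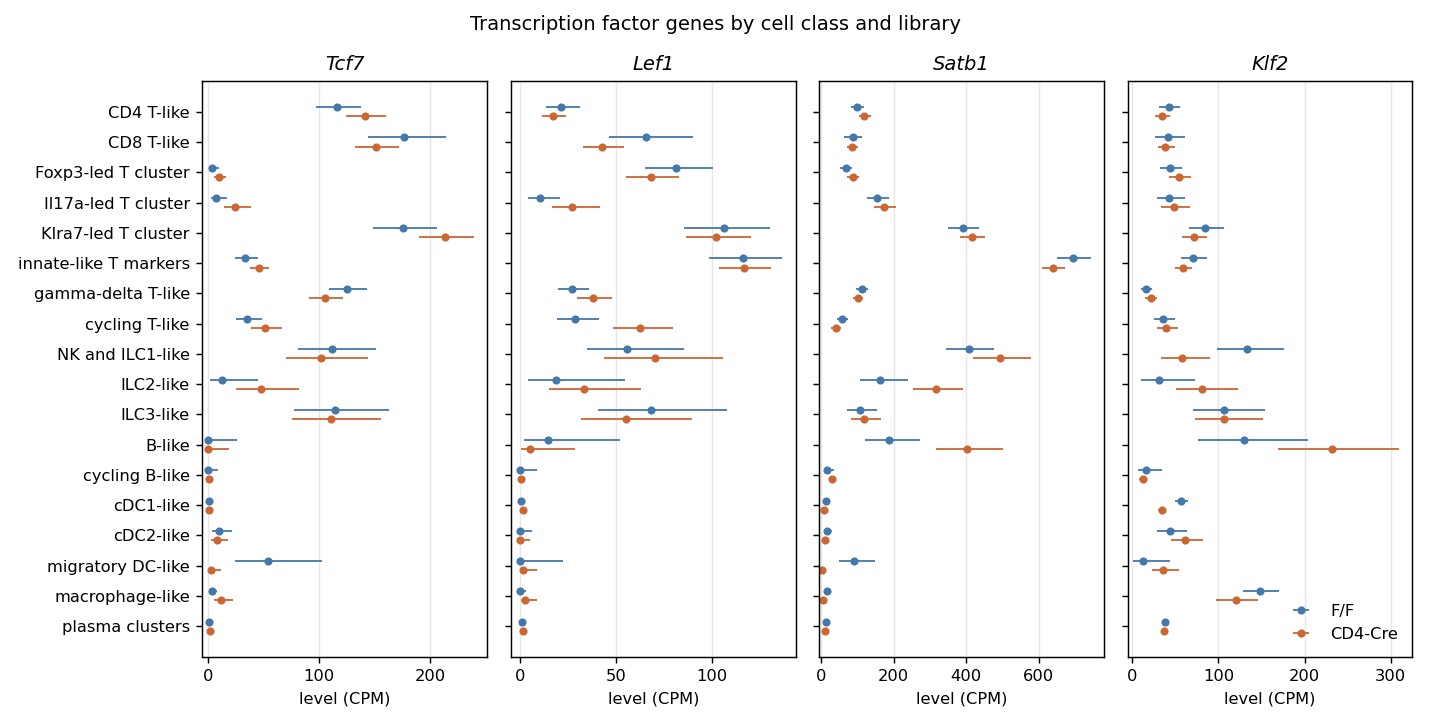
Levels of Tcf7, Lef1, Satb1 and Klf2 in CPM in each cell class or cluster, for the F/F and CD4-Cre libraries. Points are the value of 1 pool of 3 mice and bars are exact 95% Poisson intervals for counting error. Satb1 was highest in innate-like T cells, at 695 and 640 CPM, and Tcf7 in the Klra7-led and CD8 T-like cells.

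Lef1, the relative of Tcf7 (chromosome 3, 131110471 to 131224356, plus strand), was distributed otherwise. Innate-like T cells had the highest Lef1 level, 117 CPM (98.6 to 137) in F/F and 117 CPM (104 to 131) in CD4-Cre, with a Lef1 UMI in 28.1% and 28.8% of cells. The Klra7-led cluster followed with 106 and 102 CPM, and its intervals overlapped those of innate-like T cells. The Foxp3-led cluster, low in Tcf7, had 81.5 CPM (65.2 to 101) and 68.1 CPM (55.4 to 82.9) of Lef1. CD4 T-like cells were at 21.1 CPM (13.5 to 31.4) and 16.8 CPM (11.3 to 24.0), below the Foxp3-led cluster in both libraries with intervals that did not overlap. CD8 T-like cells had 65.6 and 42.6 CPM, NK and ILC1-like cells 55.9 and 70.1 CPM, and ILC3-like cells 68.5 and 55.2 CPM. After thinning, the share of cells with a Lef1 UMI was 12.4% in F/F and 108 of 720 cells in CD4-Cre in innate-like T cells, 2.20% and 2.90% in CD4 T-like cells, and 0.164% and 0.191% in plasma clusters. Over 30 points, 15 named classes in each library, the Pearson correlation of Tcf7 and Lef1 levels on the log2(CPM + 10) scale was 0.74. Over the 16 points of T and innate lymphoid classes it was -0.03. Points of 1 library share its depth and free RNA, so these values are descriptions.

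Satb1 (chromosome 17, 51736187 to 51833290, minus strand) was highest in innate-like T cells, at 695 CPM (650 to 743) and 640 CPM (609 to 673), with a UMI in 77.0% and 76.8% of cells and, after thinning, in 54.5% and 52.6%. NK and ILC1-like cells had 408 CPM (346 to 478) and 494 CPM (419 to 578), and the Klra7-led cluster 390 and 416 CPM, with values that overlapped. CD4 T-like cells had 99.3 and 119 CPM and CD8 T-like cells 86.3 and 85.8 CPM. Their thinned shares of 10.1% and 11.6%, and 6.72% and 10.4%, were above the 1.93% and 1.68% of plasma clusters. B-like cells carried 187 CPM (122 to 274) and 401 CPM (317 to 501), and ILC2-like cells 163 CPM (106 to 238) and 316 CPM (253 to 391). In both of these classes, of 30 and 36 and of 40 and 69 cells, CD4-Cre was the higher library and the intervals did not overlap. Both classes are too small for the comparison of genotypes. Satb1 and Lef1 had a correlation of 0.75 over the 30 points and 0.50 over the 16.

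Klf2 (chromosome 8, 72319033 to 72321656, plus strand) was highest outside the T cells. B-like cells had 129 CPM (76.7 to 204) and 231 CPM (169 to 310), macrophage-like cells 148 CPM (129 to 170) and 120 CPM (97.7 to 146), and neutrophil-like cells 139 and 116 CPM. ILC3-like cells followed with 106 and 107 CPM. NK and ILC1-like cells had 133 CPM (98.9 to 176) in F/F, from 50 UMIs in 95 cells, and 57.4 CPM (34.0 to 90.7) in CD4-Cre, from 18 UMIs in 89 cells. The intervals did not overlap, but this class too is below the 100 cells per library set for the comparison of genotypes. CD4 T-like cells had 42.2 CPM (31.1 to 55.9) and 34.2 CPM (26.1 to 43.9), and CD8 T-like cells 41.4 and 38.7 CPM. Plasma clusters had 37.6 and 36.8 CPM, and barcodes of 150 to 350 UMIs 32.7 and 23.1 CPM. After thinning, a Klf2 UMI was found in 5.03% and 5.02% of CD4 T-like cells and 2.24% and 4.49% of CD8 T-like cells, against 6.04% and 5.47% in plasma clusters. The plasma clusters held 82.1% and 78.9% of all Klf2 UMIs in kept cells, so they are not a class that lacks the gene. The plasma cell gene Jchain was at 3786 and 3782 CPM in CD4 T-like cells. It was far higher in free RNA, at 43641 and 46424 CPM in barcodes of 150 to 350 UMIs. In barcodes of 10 to 100 UMIs it was at 20370 and 22152 CPM. Klf2 was not lower in CD4 T-like cells than in the barcodes of 150 to 350 UMIs. In those of 10 to 100 UMIs Klf2 was at 26.5 and 35.7 CPM, the CD4-Cre value slightly above that of CD4 T-like cells. Klf2 is also an immediate response gene, whose RNA can change while tissue is dissociated, and this was not tested.

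Ccr7 (chromosome 11, 99144196 to 99155077, minus strand) RNA came mostly from dendritic cells. Cells like migratory dendritic cells, which use CCR7 to travel to lymph nodes, had 540 CPM (434 to 664) in F/F, from 90 UMIs in 12 cells, and 272 CPM (233 to 316) in CD4-Cre, from 174 UMIs in 38 cells. They held 67.7% and 79.8% of all Ccr7 UMIs in kept cells, and 91.7% and 81.6% of these cells had a Ccr7 UMI. The intervals of the libraries did not overlap, but the class is too small for the comparison of genotypes. B-like cells had 50.3 and 15.4 CPM, from 7 and 3 UMIs. The other conventional dendritic cells were low, cDC2-like cells at 14.6 and 2.71 CPM and cDC1-like cells at 1.42 and 3.39 CPM. Ccr7 was at 0.879 and 0.560 CPM in CD4 T-like cells, 1 UMI in each library, beside 0.613 and 0.507 CPM in barcodes of 150 to 350 UMIs. In barcodes of 10 to 100 UMIs it was at 0 and 2.69 CPM, the latter from 4 UMIs. Ccr7 was at 0 in both libraries in innate-like T, Klra7-led, NK and ILC1-like, ILC2-like, ILC3-like and macrophage-like cells.

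S1pr1 (chromosome 3, 115710433 to 115715072, minus strand) was highest in B-like cells, at 101 CPM (55.0 to 169) from 14 UMIs in F/F and 36.0 CPM (14.5 to 74.2) from 7 UMIs in CD4-Cre, with overlapping intervals. An S1pr1 UMI was found in 26.7% and 19.4% of the 30 and 36 B-like cells. CD8 T-like cells had 8.63 and 5.90 CPM.

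**Figure D2:**
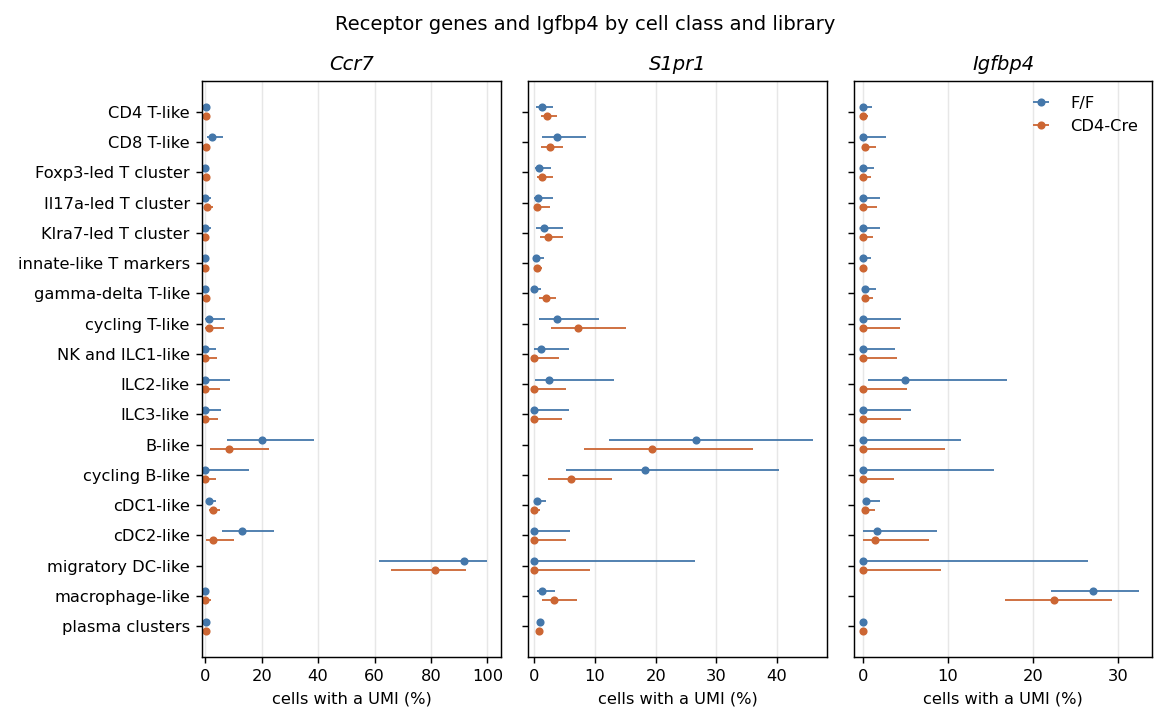
Share of cells with at least 1 UMI of Ccr7, S1pr1 or Igfbp4 (percent, not thinned) in each cell class or cluster, for the F/F and CD4-Cre libraries. Bars are exact 95% Clopper-Pearson intervals for counting error. Ccr7 reached 91.7% and 81.6% in migratory dendritic-like cells and Igfbp4 27.1% and 22.5% in macrophage-like cells.

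The remaining members did not mark T cells in this tissue. Igfbp4 (chromosome 11, 99041244 to 99054392, plus strand) was highest in macrophage-like cells, at 77.1 CPM (63.2 to 93.3) in F/F and 66.1 CPM (49.8 to 86.0) in CD4-Cre, which was 59.9% and 49.1% of all its UMIs in kept cells. A cluster led by Lyz2, a myeloid lysozyme gene, followed with 22.2 and 18.1 CPM. An Igfbp4 UMI was found in 27.1% and 22.5% of macrophage-like cells (median 4286 and 4252.5 UMIs) but in 0.0868% and 0.0761% of plasma cluster cells. CD4 T-like cells held none. Dapl1 (chromosome 2, 59484653 to 59505020, plus strand) gave 2 UMIs in all kept F/F cells and 1 in all kept CD4-Cre cells.

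The gamma-delta T-like class was made of 4 clusters that differed in the regulators. The cluster led by Bend4 and Cd7, of 97 and 109 cells, had 344 CPM (295 to 399) and 311 CPM (265 to 363) of Tcf7, and a Tcf7 UMI in 75.3% and 66.1% of cells. Tcf7 was not among the genes used to group the cells. It was one of the 10 leading genes of this cluster, found after clustering, and its height there is a description. The clusters rich in Gzma, a cytotoxic granule gene, were low: the one led by Gzma and Trdc had 30.7 and 24.9 CPM, and the one led by Cd200r2 had 2.60 and 2.12 CPM, 1 UMI in each library. The cluster led by Cd163l1 and Il23r, genes of interleukin 17-type gamma-delta T cells, had 69.3 and 94.1 CPM in 32 and 54 cells. Satb1 was high in the Bend4-led cluster (253 and 220 CPM) and in the Cd163l1-led cluster (231 and 115 CPM). In thinned gamma-delta T-like cells, Satb1 was found in 35.4% (22.2 to 50.5) of F/F cells with Tcf7 and 9.56% (6.44 to 13.5) of those without. In CD4-Cre these shares were 29.2% (17.0 to 44.1) and 9.61% (6.86 to 13.003). CD4 T-like cells showed no such separation at this depth: Satb1 was found in 12.0% of cells with Tcf7 and 9.70% of those without in F/F, and in 14.1% and 11.03% in CD4-Cre, with overlapping intervals.

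**Figure D3:**
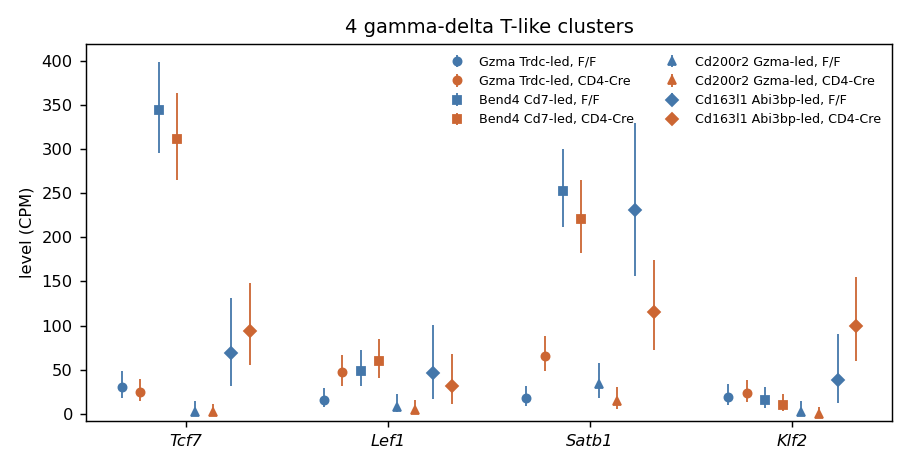
Levels of Tcf7, Lef1, Satb1 and Klf2 (CPM) in the 4 gamma-delta T-like clusters, named by leading genes, for the F/F and CD4-Cre libraries, with exact 95% Poisson intervals for counting error. Tcf7 was at 344 and 311 CPM in the Bend4-led cluster and at 2.60 and 2.12 CPM in the Cd200r2-led cluster.

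Few conventional T cells held several members at once. After thinning, at least 2 of the 7 members other than Klf2 were found in 10 of 318 CD4 T-like cells (3.14%, 1.52 to 5.71) in F/F and 19 of 518 (3.67%, 2.22 to 5.67) in CD4-Cre. The shares were 5.22% (2.13 to 10.5) and 4.78% (2.81 to 7.54) in CD8 T-like cells, 9.80% and 12.2% in innate-like T cells, and 13.8% and 15.6% in the Klra7-led cluster. Without thinning they were 8.21% and 10.8% in CD4 T-like cells and 14.9% and 15.4% in CD8 T-like cells. A count cut from such sparse data is a range and not a cell type, and the libraries' intervals overlapped in both CD4 and CD8 T-like cells.

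The genotypes were compared in the 9 named classes and T cell clusters with at least 100 cells in each library, and not in the plasma, mixed or Lyz2-led clusters. A gene was called where it had at least 20 UMIs over both libraries, a ratio of at least 1.5 in either direction and an interval that left out 1. In CD4 T-like cells none of the 8 members was called, beside 5.26% of the 8342 genes with enough UMIs. Only Tcf7, Lef1, Klf2 and Satb1 had enough UMIs there. The ratio of CD4-Cre to F/F was 1.22 (0.982 to 1.51) for Tcf7, 0.797 (0.450 to 1.42) for Lef1, 0.810 (0.546 to 1.21) for Klf2 and 1.20 (0.952 to 1.52) for Satb1. Their median log2 ratio was -0.02, and that of all genes tested 0.07. In these cells Cd4 itself was at 299.7 CPM in the F/F pool against 1529.2 CPM in the other, with a UMI in 60.8% and 95.1% of them. Its part in how CD4 T-like cells were gathered in each library was not tested. When cells were gated on single UMIs of Cd4 and the T cell receptor genes in place of clusters, 2 of 5 tested members were called, Tcf7 with a log2 ratio of 0.70 and Lef1 with 0.65, beside 6.51% of 12387 genes. Of the 748 and 1703 gated cells, 191 and 477 were CD4 T-like by cluster. With the Foxp3-led and Il17a-led clusters added to the CD4 T-like cells, none of 5 was called, beside 4.48% of genes.

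**Figure D4:**
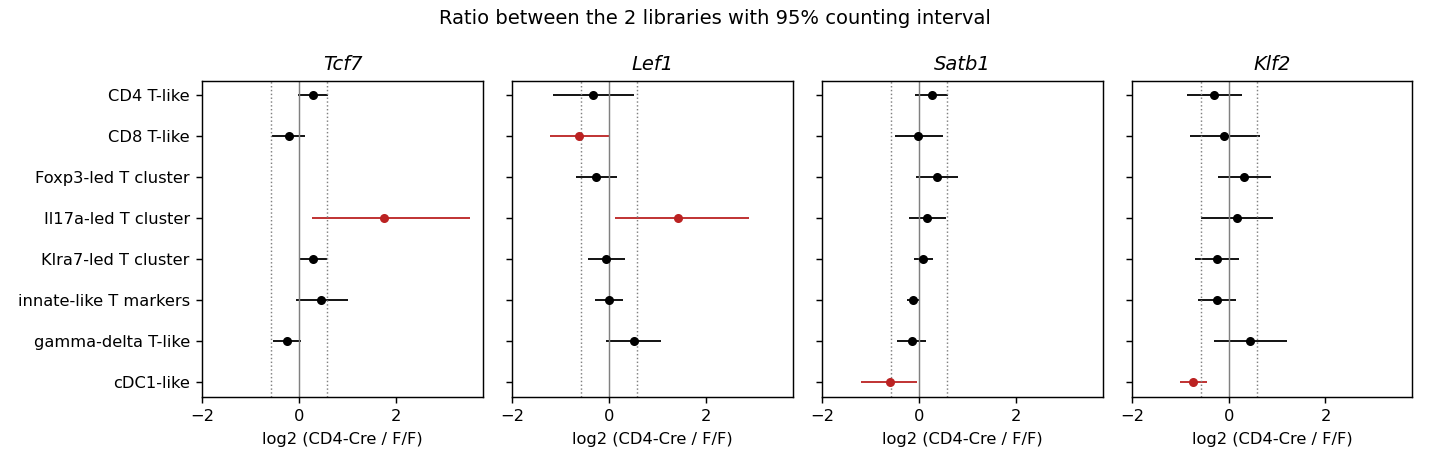
The log2 ratio of CD4-Cre to F/F for Tcf7, Lef1, Satb1 and Klf2 in cell classes and clusters, with exact 95% intervals for counting error. Red points were called and dotted lines mark 1.5-fold. No member was called in CD4 T-like cells, and Klf2 in cDC1-like cells was lower in CD4-Cre, at a ratio of 0.601.

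In CD8 T-like cells Lef1 was at 65.6 CPM (38 UMIs) in F/F and 42.6 CPM (65 UMIs) in CD4-Cre, a ratio of 0.649 (0.428 to 0.995), and it was the only one of the 4 tested members called, beside 8.33% of all genes tested. In F/F 20 of the 38 UMIs came from 5 cells, and leaving out the top 5 cells per library gave a log2 ratio of 0.054. The share of cells with a Lef1 UMI was 14.9% and 13.8%. Among innate-like T cells none of 4 tested members was called (4.91% of genes), among gamma-delta T-like cells none of 4 (6.03%), in the Klra7-led cluster none of 4 (5.99%) and in the Foxp3-led cluster none of 3 (6.56%). The largest shift among the tested members in gamma-delta T-like cells was that of Lef1, at 26.7 and 38.0 CPM, a log2 ratio of 0.51. It was called at 0.75 once the 5 highest cells per library were left out. S1pr1, with 0 UMIs in F/F and 10 in CD4-Cre there, had too few UMIs to be tested.

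The T cluster led by Il17a and Il23r, of 175 and 210 cells, had 2 of 4 tested members called, both higher in CD4-Cre, beside 6.68% of genes. Tcf7 was at 7.18 CPM in F/F, from 5 UMIs, and 24.2 CPM in CD4-Cre, from 18 UMIs, a ratio of 3.37 (1.21 to 11.6). Lef1 was at 10.1 CPM (7 UMIs) and 26.9 CPM (20 UMIs), a ratio of 2.68 (1.09 to 7.49). Of the 18 Tcf7 UMIs in CD4-Cre, 15 came from 5 cells. Without these 5 cells too few UMIs were left for Tcf7 to be tested, so its dependence on them was not tested. Il7r (2.30, interval 1.62 to 3.32), Cd27 (2.09, 1.34 to 3.33) and Klf3 (1.93, 1.05 to 3.67) were the 3 of 14 tested other naive and memory T genes called there, all higher, and the median log2 ratio of the 14 was 0.16. Btg2 (0.799, 0.696 to 0.917) lay the other way without being called. Of 13 tested residence genes 1 was called, Itgae (2.43, 1.46 to 4.17), which encodes the CD103 integrin of tissue-resident cells.

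Among dendritic cells, Klf2 in cDC1-like cells was at 56.9 CPM (240 UMIs) in F/F and 34.2 CPM (182 UMIs) in CD4-Cre, a ratio of 0.601 (0.493 to 0.732), with a UMI in 45.3% and 30.4% of cells. Satb1 was at 13.8 and 9.03 CPM there, a ratio of 0.656 (0.438 to 0.979), so 2 of the 3 tested members were called lower, beside 4.49% of genes called in either direction. Satb1 was close to the 12.0 and 10.3 CPM of the plasma clusters. Of the 30 F/F cDC1-like cells with Satb1, 8 also had a T cell receptor UMI, beside 30 of all 276. In CD4-Cre 9 of 26 had one, beside 45 of all 381. Among 8 other immediate response genes, chosen after their values were seen, 2 were lower in CD4-Cre cDC1-like cells, Jun (0.550) and Atf3 (0.661), and none was higher. The count was the same in CD8 T-like cells, Jun (0.526) and Egr1 (0.569), beside 8.33% of all genes. The Klf2 ratio there was 0.933 and was not called. In CD4 T-like cells 1 of the 8 was lower, and in macrophage-like cells 1 was higher. The part of these genes in the Klf2 difference of cDC1-like cells was not tested. In thinned cDC1-like cells the Klf2 log2 ratio was -0.38 and was not called. In macrophage-like cells Satb1 was lower in CD4-Cre, 22 against 4 UMIs and a ratio of 0.300 (0.075 to 0.883), the only one of 3 tested members called, beside 6.72% of genes. Of the 13 F/F macrophage-like cells with Satb1, 6 also had a T cell receptor UMI, beside 25 of all 303.

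The other genes of the naive and memory programme were mostly present in CD4 T-like cells, and few were called. Of 18 listed, 15 had enough UMIs, 1 was called higher in CD4-Cre and none lower, near the 5.26% of all genes, with a median log2 ratio of 0.14. The called gene was Actn1, an actin crosslinker, at 7.03 and 16.8 CPM, a ratio of 2.39 (1.07 to 6.03). Il7r, the survival cytokine receptor of naive and memory T cells, was at 225 and 285 CPM and Foxp1, a quiescence factor, at 308 and 378 CPM, and neither was called. Of 16 genes of tissue residence and effector function, 15 had enough UMIs and their median was 0.12. Prdm1, which encodes the factor BLIMP-1, was higher in CD4-Cre (38.7 and 71.1 CPM, ratio 1.84, 1.30 to 2.66), and Xcl1, a chemokine gene, was lower (437 and 98.0 CPM, ratio 0.224, 0.188 to 0.267). Cd69, whose protein holds S1PR1 inside the cell, was at 720 and 926 CPM and was not called.

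Of 12 partners of TCF and LEF factors, 7 had enough UMIs in CD4 T-like cells, where 5.26% of all genes tested were called. The corepressor gene Tle3 was higher in CD4-Cre (1.75, 1.08 to 2.93) and the coactivator gene Ctnnb1, which encodes beta-catenin, lower (0.593, 0.400 to 0.877). None of 3 tested genes of the sphingosine 1-phosphate axis and none of 5 tested close relatives of the members was called, and no gene of the CCR7 axis had enough UMIs. In CD8 T-like cells, where 8.33% of all genes were called, 1 of 15 tested naive and memory genes was higher, Klf3 (1.58), and 1 lower, Btg2 (0.598). Of 15 tested residence genes there, Prdm1 (2.85) and Itga1 (1.61) were higher and Xcl1 (0.444) and Ahr (0.525) lower. Of 8 tested partners of TCF and LEF factors there, Apc (1.67, 1.14 to 2.51) was higher. RNA of other tissues moved with the libraries in the same cells. All 10 listed pancreatic genes were lower in CD4-Cre CD4 T-like cells, with summed levels of 1716 and 53.8 CPM, led by Try4 (249 and 3.36 CPM), Ctrb1 (299 and 6.72 CPM) and Reg1 (104 and 1.12 CPM). Of 6 gastric genes 4 were higher, summed at 50.1 and 446 CPM, led by Tff2 (38.7 and 333 CPM), Gkn3 (9.67 and 68.9 CPM) and Agr2 (1.76 and 25.8 CPM). In CD8 T-like cells all 10 pancreatic genes were lower too, Prss2 among them (233 and 0.655 CPM), and 3 gastric genes higher. No plasma cell gene of 8 was called. Their part in the member ratios was not tested.

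The genes whose levels ran most like each member over the 30 points were ranked among 6642 genes that reached 50 CPM. For Tcf7 they were Sntb1 (Pearson r 0.93), Cd160 (0.91) and Ttc39b (0.91), and for Lef1 Il2rb (0.91), Cd226 (0.91) and Thy1 (0.91). Satb1 was most like Gimap6 (0.88), Abcb9 (0.88) and Il2rb (0.87), so Il2rb, a receptor chain for interleukins 2 and 15, stood beside both Lef1 and Satb1. Ccr7 was most like Il4i1 (0.92), Cacnb3 (0.91) and Adcy6 (0.91), and Igfbp4 most like Mmp13, Scamp1 and Lilra5 (all 0.96). S1pr1 was most like Gm4610 (0.89), Nxpe2 (0.88) and the B cell gene Fcer2a (0.87). Klf2 had the weakest neighbours, Adgre5 (0.80), Tagap (0.76) and Ccnl1 (0.76). Dapl1 was too low to rank.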

How the data were processed

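Per the submitters' processing notes, Cell Ranger 7.2.0 and Seurat 5.0.1 were used, with the mm10 (GRCm38) build. The deposited matrices hold unfiltered UMI counts, used as deposited: the authors' cell filtering and cell types were not used here. Cells of both libraries were clustered together (scikit-learn 1.9.0, leidenalg 0.10.2, 2000 variable genes, 30 principal components, 15 neighbours, resolution 1). Genes of antigen receptors, mitochondria and ribosomes were left out. So were genes that reached 20 CPM in free RNA and differed there more than 4-fold between the libraries. The 8 members, the other listed genes and Gramd1a were also left out of the clustering. Differences between classes are given as descriptions. Clusters were named from marker lists, and those whose leading genes went against a name, were led by free RNA or had a median of 20% immunoglobulin UMIs stayed unnamed. No doublet caller was run. Levels are CPM within a class, and ratios have exact binomial intervals. The code was tested on simulated data.

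The members, lists and tests were chosen with earlier results of these data known. Named genes were all 8 members, up to 3 genes per list and direction called in CD4 or CD8 T-like cells, and the 3 genes most like each member; genes of the Il17a-led cluster and those given as not called were chosen after their values were seen. A further gene that the rule names is not reported here. Alternatives were stricter cell filters, other clustering resolutions, marker gates, removal of cells over 10% immunoglobulin UMIs, another CPM total, removal of the 5 highest cells, thinning and a minimum of 50 UMIs.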

Additional observations from a re-analysis of the deposited data

Results flagged for a closer look

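Lef1 went in opposite directions between the genotypes in CD8 T-like cells, where the ratio of CD4-Cre to F/F was 0.649, and in the Il17a-led T cluster, where it was 2.68. The direction in CD8 T-like cells rested on few cells. It turned to a log2 ratio of 0.054 without the 5 highest cells of each library, and Lef1 was not called there under thinning, marker gates, stricter cell filters or either other clustering resolution. Each genotype was 1 pool, so the difference between these ratios was not tested.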

How the results depend on the processing

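Of 60 values recomputed for the comparisons in CD4 and CD8 T-like cells, 52 kept their result and 8 moved. With marker gates, 2 members were called in CD4 T-like cells, beside 6.51% of genes, and the median member log2 ratio was 0.65. These gates took cells from plasma clusters too, 181 of 748 in F/F and 306 of 1703 in CD4-Cre. Without thinning, the share of cells with at least 2 members was 8.21% and 10.8% in CD4 T-like cells and 14.9% and 15.4% in CD8 T-like cells. Thinned to 1000 UMIs, it was 1.32% in CD4 T-like and 1.69% in CD8 T-like cells of CD4-Cre. Pooling with the Foxp3-led and Il17a-led clusters, chosen after seeing the data, left 0 members called and a median of 0.22. Of 249 values for single members, 228 kept their result. Most member ratios were not called before, so keeping a result mostly meant staying uncalled, which says little about size or direction. Tcf7 in the Il17a-led cluster was called, but too few of its UMIs were left to test it without the 5 highest cells. Lef1 in CD8 T-like cells turned to a log2 ratio of 0.054 without the 5 highest cells, and it was not called under thinning (-0.23), marker gates (-0.34), at least 2000 UMIs (-0.60), at most 5% mitochondrial UMIs (-0.59) or either other clustering resolution (-0.54 and -0.59). Satb1 in cDC1-like cells was not called without the 5 highest cells (-0.65) or at 2000 UMIs (-0.57), and Satb1 in macrophage-like cells at either other resolution (-0.18 and -0.23). Klf2 in cDC1-like cells was not called under thinning (-0.38). Members not called before were called under thinning for Tcf7 in innate-like T cells (1.38), Klf2 in macrophage-like cells (-0.75) and Klf2 in the Foxp3-led cluster (1.24). The same held for gamma-delta T-like Lef1 without the 5 highest cells (0.75), at 2000 UMIs (0.64) and at the lower resolution (1.19), where Satb1 was called too (0.90). At the lower resolution the gamma-delta T-like class held 212 and 270 cells, against 341 and 433 before. Macrophage-like cells numbered 554 and 382 at the lower and 477 and 304 at the higher resolution, against 303 and 182. These values at other resolutions therefore describe partly other sets of cells. The causes were not tested. The clusters named by leading genes had no counterpart under other resolutions, so those alternatives were not run for them. No paired analysis was possible because each genotype was 1 pool.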
